A study of Mus musculus with 2 samples.

Results

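The receptors and ligands of the myeloid growth factor and fractalkine axes were followed across cell lineages in dissociated salivary glands of NOD/ShiLtJ and CD1 mice. They are 8 of the 50768 genes counted and were taken by symbol. The receptors are *Csf1r*, *Cx3cr1*, *Flt3* and *Csf2rb*, and the ligands are *Csf1*, *Il34*, *Cx3cl1* and *Flt3l*. All 8 had a row in both count tables and UMIs (unique molecular identifiers, each standing for 1 captured RNA molecule) in both libraries.

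The study made 1 single-cell library from NOD/ShiLtJ, an inbred strain prone to autoimmune disease of the salivary glands, and 1 from CD1, an outbred strain that served as control. Both came from untreated female mice of 20 weeks, from submandibular glands pooled with the adjacent sublingual glands. The methods give 4 pooled mice per strain and a collagenase/hyaluronidase and dispase digestion, whereas the labels give 3 mice and Liberase with dispase. In both strains cells carrying EpCAM (epithelial cells) or Ter119 (red cells) and dead cells were depleted, so what follows describes the cells these steps left.

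The CSF1 receptor, encoded by *Csf1r*, maintains most tissue macrophages and is bound by CSF1 and IL-34. CX3CR1 binds fractalkine, the product of *Cx3cl1*, a chemokine held on the cell surface by a stalk until proteases cut it free. FLT3 and its ligand drive dendritic cell development, and the beta chain encoded by *Csf2rb* carries the signal of GM-CSF, IL-3 and IL-5 once paired with a ligand-specific alpha chain.

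Barcodes with at least 500 UMIs and at least 300 genes were kept, 6500.0 in the NOD library (median 5719.5 UMIs) and 7014 in the CD1 library (median 6495). Each barcode was placed in a class by the number of distinct lineage markers it held, with at least 3 markers of 1 list and a lead of 2 over the next list, and none of the 8 genes was a marker. The larger classes were macrophage-like (675 NOD and 2813 CD1 barcodes), endothelial-like (1067 and 2931), T-like (2143 and 110) and NK-like (579 and 374), and 885 NOD and 9 CD1 barcodes were B-like. Fibroblast-like (60 and 19), mural-like (14 and 19), monocyte-like (8 and 14) and dendritic-like (29 and 2) classes were small, and 436 NOD and 155 CD1 barcodes were mixed, with 553 and 506 unassigned. *C1qa*, a complement gene of macrophages, was found in 99.1% of macrophage-like barcodes of both libraries, while the scavenger receptor gene *Cd163* had 3 UMIs in NOD and 1 in CD1. *Pecam1* was found in 95.5% and 95.4% of endothelial-like, *Cd3e* in 89.4% and 84.5% of T-like and *Ncr1* in 94.8% and 97.9% of NK-like barcodes of NOD and CD1. Epithelial-like barcodes (8 and 55) rested on a median of 3 markers, and 72.7% of those in CD1 lay 1 step from the class limit, against 4.71% of CD1 endothelial-like barcodes. The libraries shared 18 barcode sequences, and doublets were kept in the values below.

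Levels are given as CPM, the UMIs of a gene per 1000000 UMIs of all genes in a class, with 95% exact Poisson intervals. Shares of barcodes have Clopper-Pearson intervals, and ratios are log2 of NOD over CD1 with a conditional binomial interval. Because each strain is 1 library of pooled mice, no difference between strains could be tested. Strain, preparation and library cannot be told apart, and every interval covers counting error only. A ratio was taken where a class had at least 50 barcodes in each library and the gene at least 20 UMIs over both, and a gene past 2-fold is counted beside the share of all genes past 2-fold in the same class.

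Upstream sequences are printed for 3 members whose window before the annotated start held no exon, *Flt3* because its level was highest in dendritic-like barcodes, and *Csf1* and *Flt3l* because different classes held these ligands. RefSeq start sites were matched for 5 of the 8 members in GRCm38.p6, and the 250 bases before each start are given on the gene's own strand. Capitals mark matches to 5 motifs searched on both strands, and a match is only a description of the letters.

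Flt3: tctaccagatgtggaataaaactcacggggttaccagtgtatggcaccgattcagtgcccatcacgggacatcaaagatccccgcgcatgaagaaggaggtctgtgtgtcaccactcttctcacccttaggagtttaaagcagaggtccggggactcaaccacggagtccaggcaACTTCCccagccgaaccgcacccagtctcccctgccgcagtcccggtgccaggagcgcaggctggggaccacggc

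Csf1: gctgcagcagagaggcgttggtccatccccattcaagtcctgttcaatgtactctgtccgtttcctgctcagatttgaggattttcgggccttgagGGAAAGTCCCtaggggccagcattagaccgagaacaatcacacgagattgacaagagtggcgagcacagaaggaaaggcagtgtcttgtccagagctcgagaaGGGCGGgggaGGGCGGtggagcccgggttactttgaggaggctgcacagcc

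Flt3l: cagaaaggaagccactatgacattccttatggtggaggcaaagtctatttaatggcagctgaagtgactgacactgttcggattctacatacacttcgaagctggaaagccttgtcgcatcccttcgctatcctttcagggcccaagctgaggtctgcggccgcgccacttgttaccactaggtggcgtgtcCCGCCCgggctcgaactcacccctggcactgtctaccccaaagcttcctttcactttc

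The *Flt3* window lies at chr5:147400490-147400739 on the minus strand and holds the PU.1 and ETS core GGAAGT on the opposite strand, starting 75 bases before the start. This core occurs in 19.7% of all 32851 promoters of the same length. The *Csf1* window lies at chr3:107760470-107760719 on the minus strand, with 2 GC boxes (GGGCGG, in 32.7% of promoters) 51 and 41 bases before the start and an NF-kB type match (GGGNNNTTCC, in 4.65% of promoters) on the opposite strand at 154 bases. The *Flt3l* window lies at chr7:45136433-45136682 on the minus strand and holds a single GC box on the opposite strand at 58 bases. The remaining motifs searched, the TATA box TATAAA (12.4% of promoters) and CCAAT (33.8%), are not spelled in these 3 windows.

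*Csf1r* and *Cx3cr1* were genes of the macrophage-like class in both strains. *Csf1r* was at 791 CPM (762 to 819) in NOD macrophage-like barcodes, from 3005 UMIs, and at 971 CPM (958 to 985) in CD1, from 18826 UMIs. *Cx3cr1* was at 1295 CPM (1259 to 1332) in NOD, from 4924 UMIs, and at 1426 CPM (1409 to 1443) in CD1, from 27636 UMIs. The class held 83.7% of all NOD and 91.5% of all CD1 *Csf1r* UMIs in kept barcodes, and 82.8% and 92.3% of those of *Cx3cr1*. Both genes were thus carried by the same class in each library, and in each their NOD level was below the CD1 level by less than 2-fold. The log2 ratio was -0.30 (-0.35 to -0.24) for *Csf1r* and -0.14 (-0.18 to -0.09) for *Cx3cr1*.

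**Figure D1:**
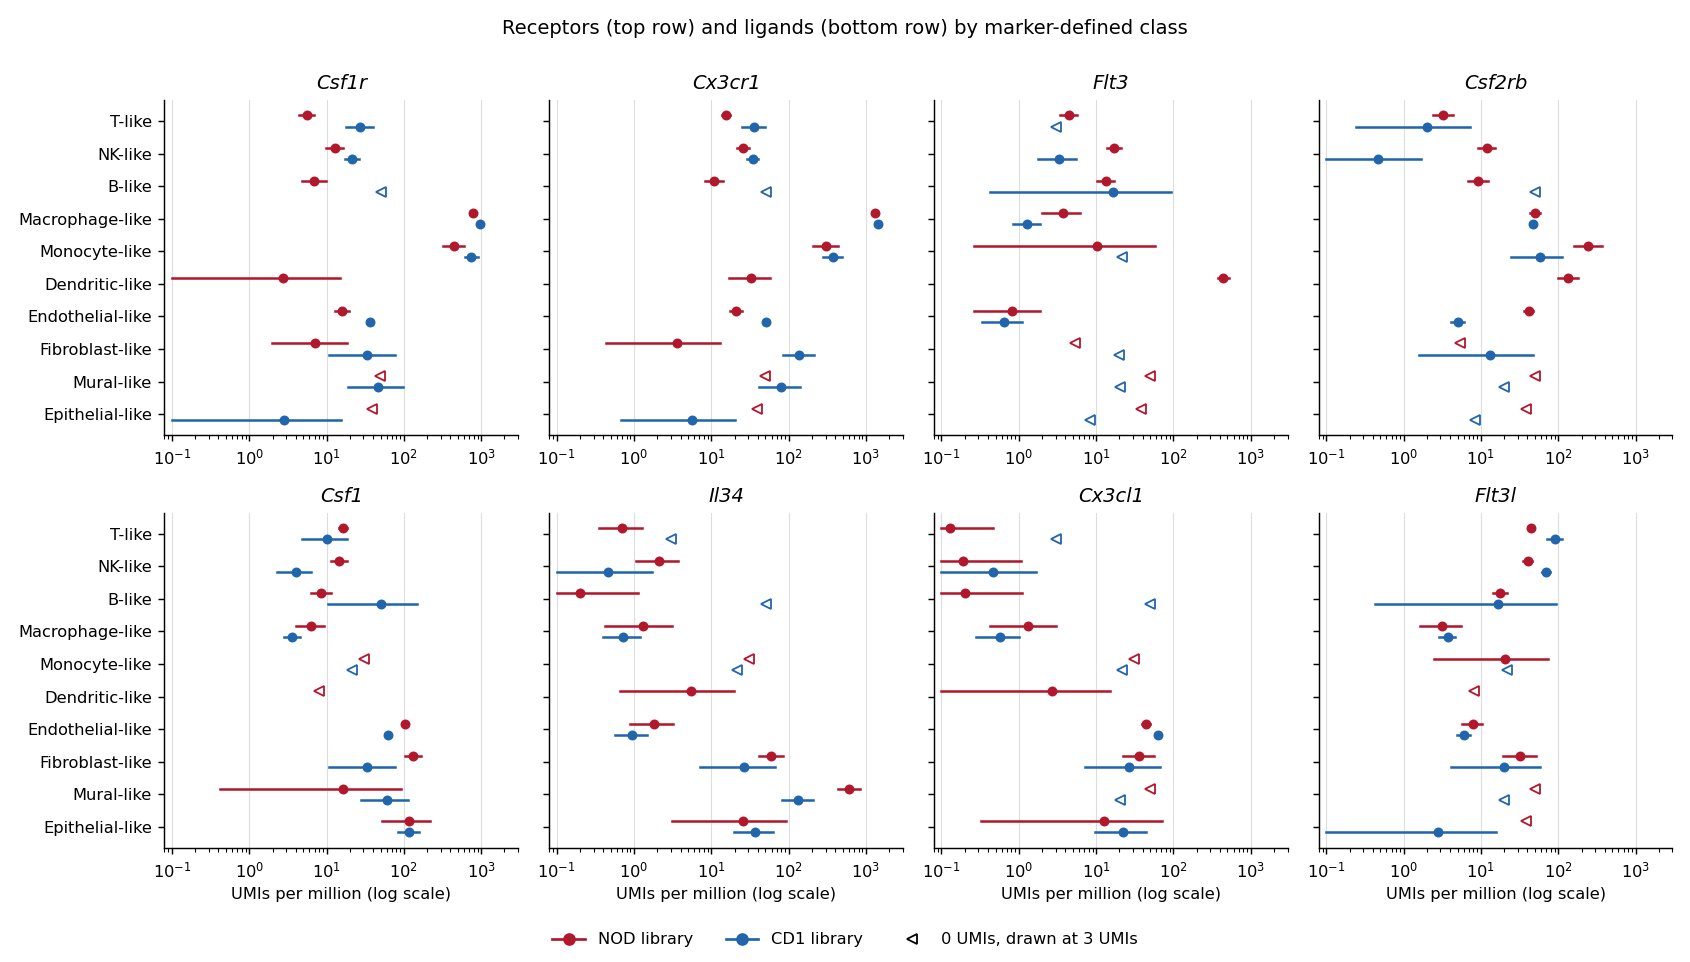
Level of each of the 8 genes (CPM, log axis) in each class with at least 8 barcodes except plasma-like, for the NOD and CD1 libraries, with 95% Poisson intervals for counting error cut at the left edge of the axis, and with open triangles at the level of 3 UMIs where a class had none. *Csf1r* and *Cx3cr1* stand highest in macrophage-like and monocyte-like barcodes, *Flt3* in dendritic-like barcodes, *Il34* in mural-like barcodes and *Flt3l* in T-like and NK-like barcodes.

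Both receptors differed more between shallow and deep barcodes than between the strains. NOD macrophage-like barcodes were shallower (median 3228 UMIs) than those of CD1 (median 7181). In barcodes under 3000 UMIs *Csf1r* was at 441 CPM in NOD and 534 CPM in CD1, and in deeper ones at 847 and 1009 CPM. *Cx3cr1* was at 369 and 411 CPM in the shallow barcodes and at 1445 and 1513 CPM in the deeper ones, so its level was over 3 times as high in the deeper barcodes of both libraries. Within barcodes of at least 3000 UMIs the log2 ratio was -0.25 for *Csf1r* and -0.066 for *Cx3cr1*. The same split appeared in clusters that were made without the 8 genes. The larger deep macrophage-like cluster (251 NOD and 1678 CD1 barcodes) had 1645 CPM (1595 to 1697) and 1593 CPM (1573 to 1613) of *Cx3cr1*, whereas the shallow cluster led by *Aif1*, *Wfdc17* and *Fth1* (312 and 742 barcodes) had 282 CPM (239 to 331) and 356 CPM (325 to 389). The part of depth in these levels was not tested. In dividing macrophage-like barcodes (23 NOD and 68 CD1), chosen by 6 division markers, *Csf1r* was at 714 CPM (612 to 829) and 886 CPM (829 to 947).

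The spread between single barcodes was wide. A NOD macrophage-like barcode held between 0 and 33 UMIs of *Csf1r* (median 2), and a CD1 barcode between 0 and 41 (median 6). For *Cx3cr1* the range was 0 to 53 (median 2) in NOD and 0 to 66 (median 8) in CD1. At least 1 UMI of *Csf1r* was found in 69.9% (66.3 to 73.4) of NOD and 82.7% (81.2 to 84.0) of CD1 macrophage-like barcodes, and in 27.0% and 33.4% after each barcode was thinned to 500 UMIs. *Cx3cr1* was found in 66.2% (62.5 to 69.8) and 78.5% (77.0 to 80.0), or 30.4% and 40.3% after thinning. The background was low by comparison, since endothelial-like barcodes, which should lack both genes and had median depths of 5135 and 6262 UMIs, held *Csf1r* in 1.97% (NOD) and 5.05% (CD1), and in 0.187% and 0.853% after thinning. Both receptor genes were seen together in 57.3% of NOD and 73.2% of CD1 macrophage-like barcodes, and neither in 21.2% and 12.1%.

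Monocyte-like barcodes carried the same pair at other levels. *Csf1r* was at 441 CPM (319 to 594, 43 UMIs) in 8 NOD and 746 CPM (610 to 904, 104 UMIs) in 14 CD1 barcodes, and every one of these barcodes held it. *Cx3cr1* was at 308 CPM (208 to 439) and 373 CPM (279 to 489). *Cx3cr1* was thus lower in this class than in the macrophage-like class of the same library, beyond counting error, in both strains. Of 8 NOD barcodes 62.5% lay near the class limit, and 50% of the 14 in CD1. The monocyte-like barcodes also differed in their markers. *Ly6c2* and *Fn1* were found in 62.5% and 87.5% in NOD against 28.6% and 42.9% in CD1. *Ace* and *Treml4* were found in 37.5% and 50% against 85.7% and 92.9%, and their part was not tested. In the cluster led by *Lyz2*, *Fn1* and *Ccl6* (43 and 39 barcodes) *Cx3cr1* was at 387 CPM (339 to 441) and 267 CPM (222 to 318), the opposite order.

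*Csf1r* and *Cx3cr1* UMIs outside the myeloid classes lay mostly in barcodes that also carried macrophage markers. In endothelial-like barcodes *Csf1r* was at 15.8 CPM in NOD and 36.0 CPM in CD1 (log2 ratio -1.19, -1.51 to -0.88), and *Cx3cr1* at 20.7 and 50.7 CPM (-1.29, -1.57 to -1.02). Barcodes with 2 or more macrophage markers were 2.91% of the NOD and 7.34% of the CD1 class, yet they held 93.8% and 88.7% of its *Csf1r* UMIs and 93.7% and 89.7% of its *Cx3cr1* UMIs. In endothelial-like barcodes with no macrophage marker *Csf1r* was at 1.24 and 3.64 CPM and *Cx3cr1* at 1.66 and 5.15 CPM. The empty droplets (barcodes of 10 to 100 UMIs) held *Csf1r* at 55.7 CPM in NOD and 337 CPM in CD1, and *Cx3cr1* at 82.1 and 411 CPM. In barcodes with no macrophage marker the log2 ratio was -1.55 (-3.06 to -0.32) for *Csf1r* and -1.64 (-2.90 to -0.58) for *Cx3cr1*. Barcodes with macrophage markers and *Csf1r* RNA in empty droplets were both more frequent in CD1, and their part in the strain difference was not tested. With doublets removed by Scrublet scores the *Csf1r* ratio of the whole class was -0.38, within 2-fold, and that of *Cx3cr1* was -1.84.

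T-like and NK-like barcodes gave a similar picture for *Csf1r* and another one for *Cx3cr1* in NOD T-like barcodes. *Csf1r* was at 5.58 and 27.1 CPM in NOD and CD1 T-like barcodes (log2 ratio -2.28, -2.92 to -1.60). Of these UMIs, 75.9% in NOD and 100% in CD1 came from the 28 and 10 barcodes with 2 or more macrophage markers. *Cx3cr1*, which cytotoxic lymphocytes can also express, was at 15.4 and 36.1 CPM (log2 ratio -1.23, -1.73 to -0.68). Among T-like barcodes without a macrophage marker the order was turned, with 10.9 CPM in NOD (150 UMIs in 83 of 1921 barcodes) and 2.94 CPM in CD1 (2 UMIs in 79 barcodes), a log2 ratio of 1.89 (0.01 to 4.95). The T-like cluster led by *Cd8a* and *Cd8b1* had 31.0 CPM (25.4 to 37.4) of *Cx3cr1* in 490 NOD barcodes and no UMI in 17 CD1 barcodes. The direction of *Cx3cr1* in T-like barcodes thus depended on which barcodes were counted. In NK-like barcodes *Csf1r* was at 12.8 and 21.5 CPM and *Cx3cr1* at 25.5 and 34.4 CPM, and barcodes with 2 or more macrophage markers held 75.4% (NOD) and 83.0% (CD1) of the *Cx3cr1* UMIs.

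**Figure D2:**
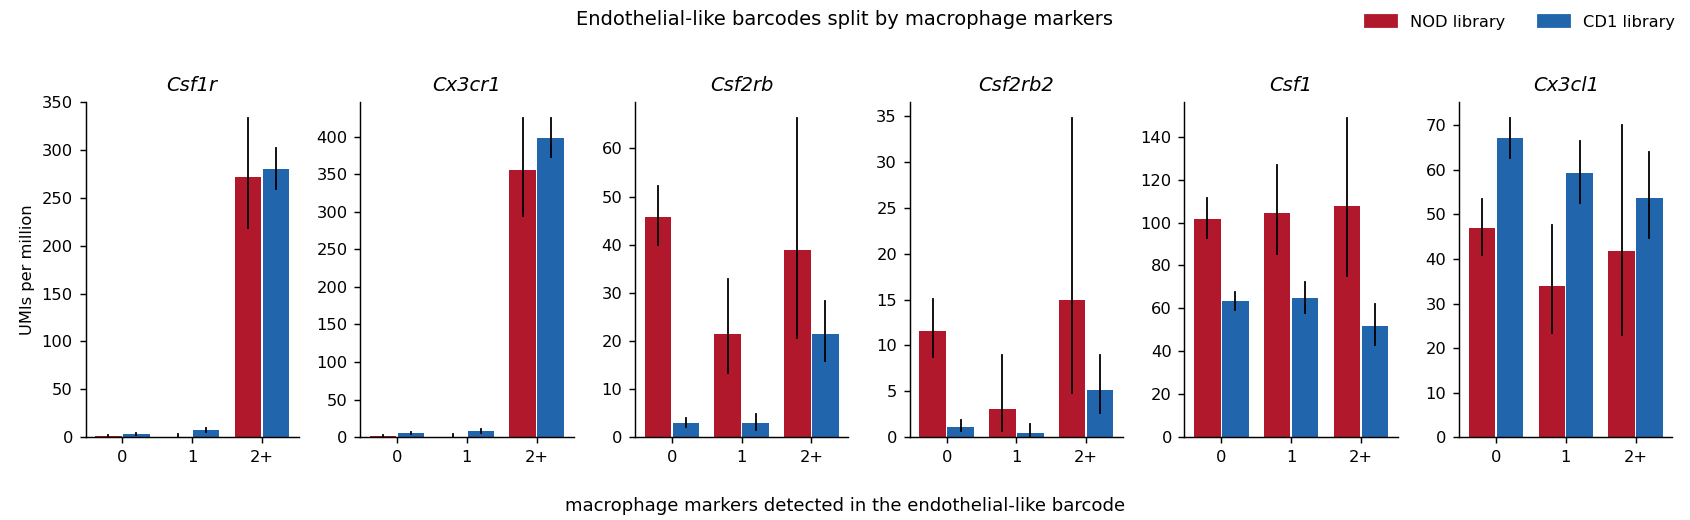
Levels in endothelial-like barcodes that held 0, 1, or 2 or more macrophage markers (CPM) in the NOD and CD1 libraries, with 95% Poisson intervals for counting error. *Csf1r* and *Cx3cr1* are high where macrophage markers are present, 272 and 280 CPM of *Csf1r* in NOD and CD1, whereas the NOD level of *Csf2rb* is 45.8 CPM in barcodes without them.

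*Flt3*, the receptor of dendritic cells and their precursors, stood apart in the few dendritic-like barcodes. In NOD it was at 443 CPM (378 to 516), from 164 UMIs in 23 of 29 barcodes, with 0 to 41 UMIs per barcode and a median of 3. In CD1 only 2 barcodes met the class, and both held it, with 17 and 18 UMIs. A barcode of NOD with 41 UMIs gave 25.0% of the class's *Flt3*. The dendritic-like barcodes of NOD with markers of conventional type 1 cells (14 barcodes) had 553 CPM (458 to 662), those with activation markers (7 barcodes) 207 CPM (103 to 370), and the 3 with plasmacytoid markers 247 CPM (107 to 486). The barcode with 41 UMIs is one of the type 1 barcodes and gave 34.5% of their *Flt3*. In CD1 the single activated barcode had 1131 CPM and the single type 1 barcode 446 CPM. Of the 29 barcodes 48.3% lay near the class limit. The dendritic-like cluster (83 NOD and 11 CD1 barcodes) had 240 CPM (217 to 264) and 280 CPM (215 to 359). Its leading genes included the plasmacytoid marker *Ccr9* and the type 1 marker *Wdfy4*. It may thus hold another mix of dendritic types than the class, and the 2 levels are not like for like. Only 1 of the 29 NOD dendritic-like barcodes held a *Csf1r* UMI, and *Flt3* and *Csf2rb* were found together in 18.

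Elsewhere *Flt3* was low. NOD B-like barcodes had 13.4 CPM (10.4 to 17.0, 67 UMIs in 5.99% of barcodes). All NOD T-like barcodes had 4.42 CPM and NOD endothelial-like barcodes 0.815 CPM (5 UMIs). The NOD empty droplets had 11.0 CPM (8.28 to 14.4), which overlaps the B-like interval. B-like barcodes were not split by dendritic markers, whereas NOD T-like barcodes without a dendritic marker had 0.540 CPM (6 UMIs). NK-like barcodes had 17.0 CPM in NOD (89 UMIs) and 3.27 CPM in CD1 (14 UMIs), a log2 ratio of 2.37 (1.55 to 3.30). Of the NOD UMIs, 97.8% lay in the 24 NK-like barcodes with 2 or more dendritic markers, which had 161 CPM (129 to 199). The 452 without such a marker held 0. With classes taken from clusters the direction turned, with a log2 ratio of -0.16. T-like barcodes had 4.42 CPM in NOD (69 UMIs) and no UMI in CD1, at least 1.47-fold higher in NOD with CD1 set to 3 UMIs, and 88.4% of the NOD UMIs lay in barcodes with 2 or more dendritic markers. In macrophage-like barcodes *Flt3* was at 3.68 CPM (14 UMIs) and 1.29 CPM (25 UMIs), a log2 ratio of 1.51 (0.46 to 2.51), and the 14 NOD UMIs all lay in 4 barcodes with 2 or more dendritic markers. Barcodes with that many dendritic markers were 34.5% of the NOD macrophage-like class and its deepest part.

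*Csf2rb* had overlapping levels in the macrophage-like barcodes of both libraries and was higher in NOD endothelial-like barcodes. Macrophage-like barcodes had 49.98 CPM (43.1 to 57.6, 190 UMIs) in NOD and 47.5 CPM (44.5 to 50.6, 920 UMIs) in CD1, a log2 ratio of 0.07 (-0.16 to 0.30). Endothelial-like barcodes had 41.6 CPM (36.6 to 47.0, 255 UMIs) in NOD and 4.99 CPM (4.07 to 6.06, 102 UMIs) in CD1. The endothelial-like level was 8.33-fold higher in NOD, a log2 ratio of 3.06 (2.72 to 3.40). It was found in 14.2% of NOD and 2.42% of CD1 endothelial-like barcodes, 1.78% and 0.273% after thinning to 500 UMIs, and no single barcode gave more than 4.31% of the NOD UMIs.

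The *Csf2rb* difference in endothelial-like barcodes did not follow macrophage markers. In barcodes without any macrophage marker it was 45.8 CPM (221 UMIs in 888 barcodes) in NOD and 2.88 CPM (38 UMIs in 2063 barcodes) in CD1, a 15.9-fold difference (log2 ratio 3.99, 3.49 to 4.53). In CD1, barcodes with 2 or more macrophage markers held 49.0% of the endothelial-like *Csf2rb* UMIs, against 5.10% in NOD. With doublets removed by Scrublet scores the log2 ratio was 4.21, and with classes taken from clusters 4.10. The empty droplets had less of it in NOD (13.1 CPM) than in CD1 (23.1 CPM), opposite to the order in the class.

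The higher *Csf2rb* level in NOD was found in each endothelial subtype that could be compared. Arterial-like barcodes (77 NOD and 158 CD1) had 98.1 CPM (73.5 to 128) and 10.3 CPM (5.14 to 18.4), a log2 ratio of 3.25 (2.30 to 4.34). Capillary-like barcodes (824 and 2407) had 31.3 CPM (26.6 to 36.6) and 4.22 CPM (3.32 to 5.29), a ratio of 2.89 (2.49 to 3.31). Within NOD the arterial-like level was above the capillary-like level, beyond counting error. Venous-like barcodes were too few for a ratio (15 and 9), with 97.7 CPM (46.9 to 180, 10 UMIs) in NOD and 1 UMI in CD1. The 2 libraries filled different endothelial-like clusters, with 491 NOD and 271 CD1 barcodes in the one led by *Kirrel3*, *Dnm3* and *Ccdc85a* and 154 and 1536 in the one led by *Rbp7*, *Plpp1* and *Ednrb*. *Csf2rb* was at 32.8 CPM (27.0 to 39.5) and 2.03 CPM (0.552 to 5.19) in the first and at 25.2 CPM (16.2 to 37.6) and 1.78 CPM (1.13 to 2.67) in the second. In the arterial cluster led by *Mecom*, *Pcsk5* and *Col8a1* it was at 82.3 CPM (66.2 to 101) and 5.23 CPM (3.05 to 8.38). NOD was higher within each of these 3 clusters.

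**Figure D3:**
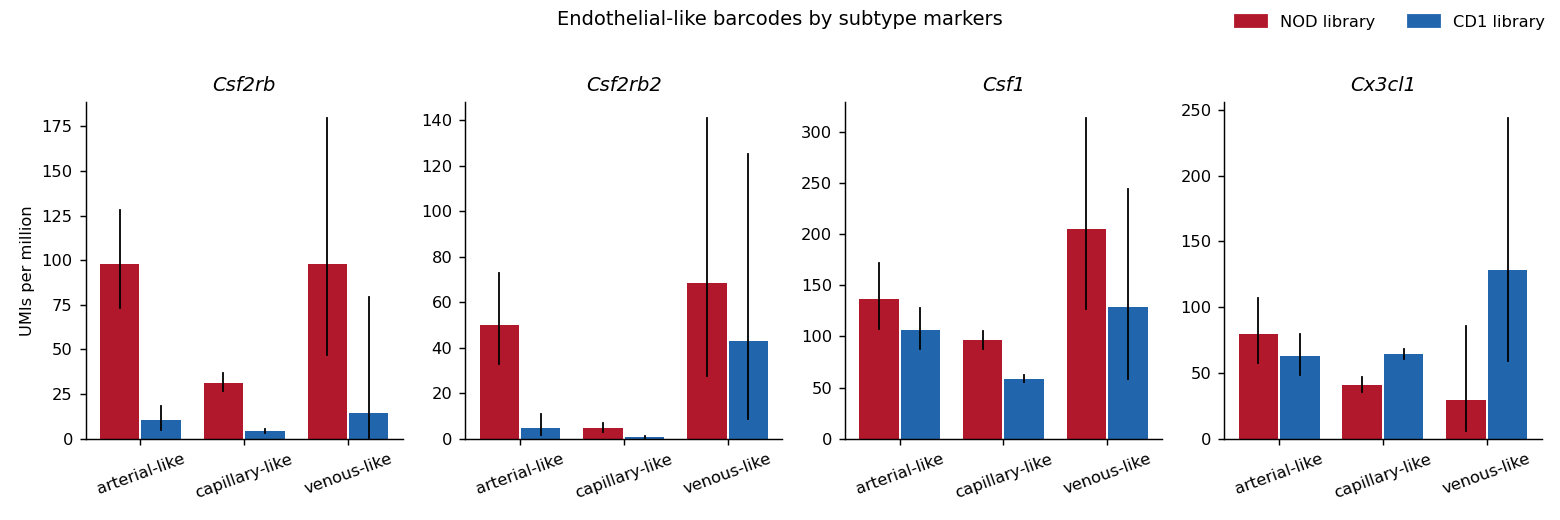
Levels of *Csf2rb*, its paralog *Csf2rb2*, *Csf1* and *Cx3cl1* (CPM, axis from 0) in arterial-like, capillary-like and venous-like barcodes of the NOD and CD1 libraries, with 95% Poisson intervals for counting error. The NOD bars of *Csf2rb* exceed the CD1 bars in arterial-like (98.1 against 10.3 CPM) and capillary-like barcodes (31.3 against 4.22 CPM), while the *Cx3cl1* bar is lower in NOD for capillary-like barcodes.

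*Csf2rb* has a close copy beside it, *Csf2rb2*, which encodes the mouse beta chain used by IL-3 alone. The 2 genes are neighbours on chromosome 15 with 0 protein-coding genes between them. Of the 50-letter words in *Csf2rb* transcripts, 12.3% also occur in *Csf2rb2*, so the sequence of these words alone does not tell the 2 genes apart. *Csf2rb2* was at 10.4 CPM (64 UMIs) in NOD and 1.42 CPM (29 UMIs) in CD1 endothelial-like barcodes, a log2 ratio of 2.88 (2.22 to 3.56). In macrophage-like barcodes it was at 15.5 and 13.4 CPM, a ratio of 0.22 (-0.22 to 0.63). Both copies were higher in NOD endothelial-like barcodes beyond counting error, while in macrophage-like barcodes neither ratio was, and how the authors' counting split their reads was not tested. In NOD 21 endothelial-like barcodes held both, against 130 with *Csf2rb* alone and 23 with *Csf2rb2* alone. The ratios of the alpha chains that pair with the beta chain spanned 0 in the endothelial-like class, with *Csf2ra* (GM-CSF) at 6.52 and 8.85 CPM (log2 ratio -0.44, -0.97 to 0.06) and *Il3ra* (IL-3) at 16.8 and 19.4 CPM (-0.21, -0.53 to 0.11). In arterial-like barcodes *Il3ra* was at 12.95 CPM (7 UMIs) in NOD and 29.0 CPM (31 UMIs) in CD1, past 2-fold lower in NOD with an interval that spanned 0 (-1.16, -2.59 to 0.05). In capillary-like barcodes *Csf2ra* was at 5.75 and 8.94 CPM (-0.64, -1.26 to -0.06).

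Monocyte-like and dendritic-like barcodes also carried *Csf2rb*. The monocyte-like level was 246 CPM (158 to 366, 24 UMIs, 12 of them in 1 barcode) in NOD and 57.4 CPM (24.8 to 113, 8 UMIs) in CD1. These barcodes differed in their markers between libraries. In the cluster led by *Lyz2* the *Csf2rb* level was 135 CPM (107 to 168) in NOD and 88.2 CPM (63.3 to 120) in CD1, and these intervals overlap. The dendritic-like level was 135 CPM (100 to 178, 50 UMIs) in NOD, with 357 CPM (215 to 557) in the 7 activated and 93.0 CPM (56.8 to 144) in the 14 type 1 barcodes, and 163 CPM in the 2 CD1 barcodes. In NK-like barcodes *Csf2rb* had 63 UMIs in NOD and 2 in CD1 (log2 ratio 4.68, 2.77 to 7.76), and 93.7% of the NOD UMIs lay in the 24 barcodes with 2 or more dendritic markers. Macrophage-like barcodes with *Csf2rb* nearly all held *Csf1r* too, 120 of 125 in NOD and 658 of 670.0 in CD1. These counts were not thinned to equal depth, and the part of depth in this overlap was not tested.

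*Csf1*, a ligand of the CSF1 receptor, was spread over stromal and epithelial-like classes and was higher in NOD than in CD1 endothelial-like barcodes. Endothelial-like barcodes had 103 CPM (94.7 to 111, 629 UMIs) in NOD and 62.4 CPM (59.0 to 65.9, 1275 UMIs) in CD1, a log2 ratio of 0.72 (0.58 to 0.86). They held 51.4% of all *Csf1* UMIs of NOD and 84.3% of those of CD1. Fibroblast-like barcodes had 133 CPM (104 to 167, 74 UMIs in 27 of 60 barcodes) in NOD and 32.9 CPM (10.7 to 76.7, 5 UMIs) in CD1. *Csf1* was found in 33.3% of NOD and 27.6% of CD1 endothelial-like barcodes, against 3.11% and 1.99% of macrophage-like barcodes, which had 6.31 and 3.61 CPM. In barcodes without macrophage markers the endothelial-like values were 102 and 63.3 CPM, nearly those of the whole class.

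The *Csf1* difference was below 2-fold. Arterial-like barcodes had 137 CPM (108 to 172) and 107 CPM (88.0 to 128), a log2 ratio of 0.36 (-0.08 to 0.80), and capillary-like barcodes 96.3 CPM (88.0 to 105) and 58.9 CPM (55.4 to 62.6), a ratio of 0.71 (0.55 to 0.87), and these intervals overlap. In the cluster led by *Kirrel3* it was 103 CPM (92.7 to 115) and 86.6 CPM (74.1 to 101), and in that led by *Rbp7* 89.4 CPM (71.4 to 111) and 55.1 CPM (51.2 to 59.3). In the arterial cluster it was 132 CPM (111 to 155) and 87.7 CPM (77.8 to 98.5). The intervals overlapped in the *Kirrel3* cluster, the largest of the 3 in NOD, and not in the other pair.

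Lymphocytes held a further part of *Csf1*. T-like barcodes had 16.3 CPM (255 UMIs) in NOD and 10.0 CPM (10 UMIs) in CD1, a log2 ratio of 0.70 (-0.20 to 1.78), and NK-like barcodes 14.5 CPM (76 UMIs) and 3.97 CPM (17 UMIs), a ratio of 1.87 (1.09 to 2.72). In the NK-like cluster led by *Klra5*, *Xcl1* and *Ncr1* *Csf1* was at 22.2 CPM (18.2 to 26.8) in NOD and 4.41 CPM (2.35 to 7.55) in CD1. In the NK-like cluster led by *Klra13-ps*, *Klra4* and *Klra8* it was at 5.09 CPM (2.85 to 8.39) and 2.10 CPM (0.433 to 6.13), and these intervals overlap. T-like barcodes held 20.8% of the NOD *Csf1* UMIs. The cluster led by *Pdzrn3*, with 154 NOD and 0 CD1 barcodes, had 48.1 CPM. Outside the lymphocytes, epithelial-like barcodes had 115 CPM (9 UMIs in 2 barcodes) in NOD and 118 CPM (84.7 to 159, 42 UMIs) in CD1. The cluster led by *Acta2*, *Robo2* and *Esrrg*, with *Krt14* among its leading genes, had 91.3 CPM (68.4 to 119, 53 UMIs) in 47 CD1 barcodes. In 4 NOD neutrophil-like barcodes 13 UMIs came from 2 barcodes, with 12 in 1 of them.

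*Il34*, the other CSF1 receptor ligand, was rare, with 129 UMIs in NOD and 89 in CD1 kept barcodes, and its level was highest in mural-like barcodes, the pericytes and smooth muscle around vessels, which held 28.7% of its NOD and 22.5% of its CD1 UMIs. Mural-like barcodes had 611 CPM (430 to 842, 37 UMIs in 12 of 14 barcodes) in NOD and 134 CPM (81.9 to 207, 20 UMIs in 6 of 19 barcodes) in CD1. In NOD a barcode held 0 to 7 UMIs, and in CD1 0 to 9, where 1 barcode gave 45.0% of them. Thus the NOD level was above the CD1 level beyond counting error, in classes under the 50 barcodes set for a ratio. The mural-like barcodes also differed in their markers. The pericyte genes *Abcc9* and *Kcnj8* were found in 100% and 78.6% in NOD against 42.1% and 36.8% in CD1, and the smooth muscle genes *Acta2* and *Myh11* in 21.4% and 21.4% against 73.7% and 89.5%. Their part in the *Il34* level was not tested. With doublets removed the mural-like level was 1024 CPM in NOD and 159 CPM in CD1, and in the mural-like cluster the NOD level was 409 CPM. Fibroblast-like barcodes had 59.3 CPM (40.8 to 83.3, 33 UMIs) in NOD, 15 UMIs of which came from 1 barcode, and 26.3 CPM (4 UMIs in 1 barcode) in CD1. A further CD1 source was the cluster led by *Acta2*, *Robo2* and *Esrrg*, with *Krt14* among its leading genes. Its 47 CD1 barcodes had 32.7 CPM (19.7 to 51.1, 19 UMIs). Endothelial-like, macrophage-like, T-like and NK-like barcodes had 0 to 2.10 CPM, near the 2.25 and 2.37 CPM of the empty droplets.

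*Cx3cl1*, which encodes fractalkine, was a gene of endothelial-like barcodes and was lower in NOD. It was at 44.5 CPM (39.4 to 50.1, 273 UMIs) in NOD and 63.7 CPM (60.3 to 67.3, 1302 UMIs) in CD1, a log2 ratio of -0.52 (-0.71 to -0.33). The class held 84.0% and 95.7% of all *Cx3cl1* UMIs. It was found in 18.5% of NOD and 28.7% of CD1 endothelial-like barcodes, or 1.50% and 2.83% after thinning. Macrophage-like barcodes, which held it in 0.741% and 0.355%, had 1.32 and 0.568 CPM, while the empty droplets had 3.88 and 18.4 CPM.

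The order of *Cx3cl1* between strains was not the same in all vessels. Capillary-like barcodes had 40.6 CPM (35.3 to 46.6) in NOD and 64.6 CPM (60.9 to 68.4) in CD1, a log2 ratio of -0.67 (-0.89 to -0.45). Arterial-like barcodes had 79.6 CPM (57.6 to 107) and 62.7 CPM (48.6 to 79.6), a ratio of 0.34 (-0.24 to 0.92). The 2 intervals do not overlap, with the capillary-like ratio below 0 and the arterial-like ratio spanning it. In the cluster led by *Rbp7* the levels were 47.3 CPM (34.5 to 63.3) and 70.2 CPM (65.7 to 74.9), in that led by *Kirrel3* 36.4 CPM (30.2 to 43.4) and 46.1 CPM (37.1 to 56.6), and in the arterial cluster 78.7 CPM (63.0 to 97.0) and 64.0 CPM (55.6 to 73.3). The *Cx3cl1* intervals overlapped in the *Kirrel3* and arterial clusters and not in the *Rbp7* cluster. Over all capillary-like barcodes *Csf1* and *Cx3cl1* were ordered in opposite ways between strains. However, the libraries filled the *Kirrel3* and *Rbp7* clusters differently. Within CD1 the *Kirrel3* cluster had more *Csf1* (86.6 against 55.1 CPM) and less *Cx3cl1* than the *Rbp7* cluster. The part of this mix in the opposite order was not tested. The 2 ligands were found together in 9.84% of NOD and 10.9% of CD1 endothelial-like barcodes. Fibroblast-like barcodes had 35.9 CPM (22.0 to 55.5, 20 UMIs) of *Cx3cl1* in NOD and 26.3 CPM (4 UMIs) in CD1.

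*Flt3l* had its highest levels among the larger classes in T-like and NK-like barcodes, and was lower per UMI in NOD in both. T-like barcodes had 44.8 CPM (41.5 to 48.2, 699 UMIs) in NOD and 90.3 CPM (72.6 to 111, 90 UMIs) in CD1, a log2 ratio of -1.01 (-1.33 to -0.68) that lay on the 2-fold limit. NK-like barcodes had 40.4 CPM (35.2 to 46.2, 212 UMIs) and 69.6 CPM (62.0 to 78.0, 298 UMIs), a ratio of -0.78 (-1.05 to -0.53). In both lymphocyte classes the NOD level was lower beyond counting error. The T-like clusters of NOD differed among themselves, with 64.5 CPM (56.3 to 73.6) in the *Cd8a* cluster, 55.0 CPM (48.7 to 61.9) in the one led by *Lef1*, and 21.2 CPM in the one with *Ctla4* and *Foxp3* among its leading genes, a regulatory T cell pair. In CD1 the *Lef1* cluster (49 barcodes) had 83.5 CPM (56.3 to 119) and the *Cd8a* cluster (17 barcodes) 114 CPM (67.6 to 180). The library intervals overlapped in the *Lef1* and *Cd8a* clusters, but not in the T-like cluster led by *Top2a*, with only 6 CD1 barcodes. They also did not overlap in the NK-like clusters led by *Klra5* and by *Klra13-ps*. The *Ctla4* and *Foxp3* cluster held 517 NOD and 5 CD1 barcodes. The cluster led by *Pdzrn3*, at 23.4 CPM, held 154 and 0. The part of this mix in the lower NOD T-like level was not tested. Although lower per UMI, T-like barcodes held 53.3% of all *Flt3l* UMIs in NOD and 12.8% in CD1, where NK-like barcodes held 42.4%. Lymphocytes were not the only source. A cluster given no lineage name, led by *Stab2*, *Thsd4* and *Dach2*, held 91 NOD and 104 CD1 barcodes. It had 63.8 CPM (45.8 to 86.6, 41 UMIs) in NOD and 76.5 CPM (58.7 to 98.1, 62 UMIs) in CD1. These intervals overlap those of the T-like barcodes. Macrophage-like barcodes had 3.16 and 3.72 CPM, and NOD B-like barcodes 17.8 CPM, against 39.2 (NOD) and 21.4 CPM (CD1) in the empty droplets.

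**Figure D4:**
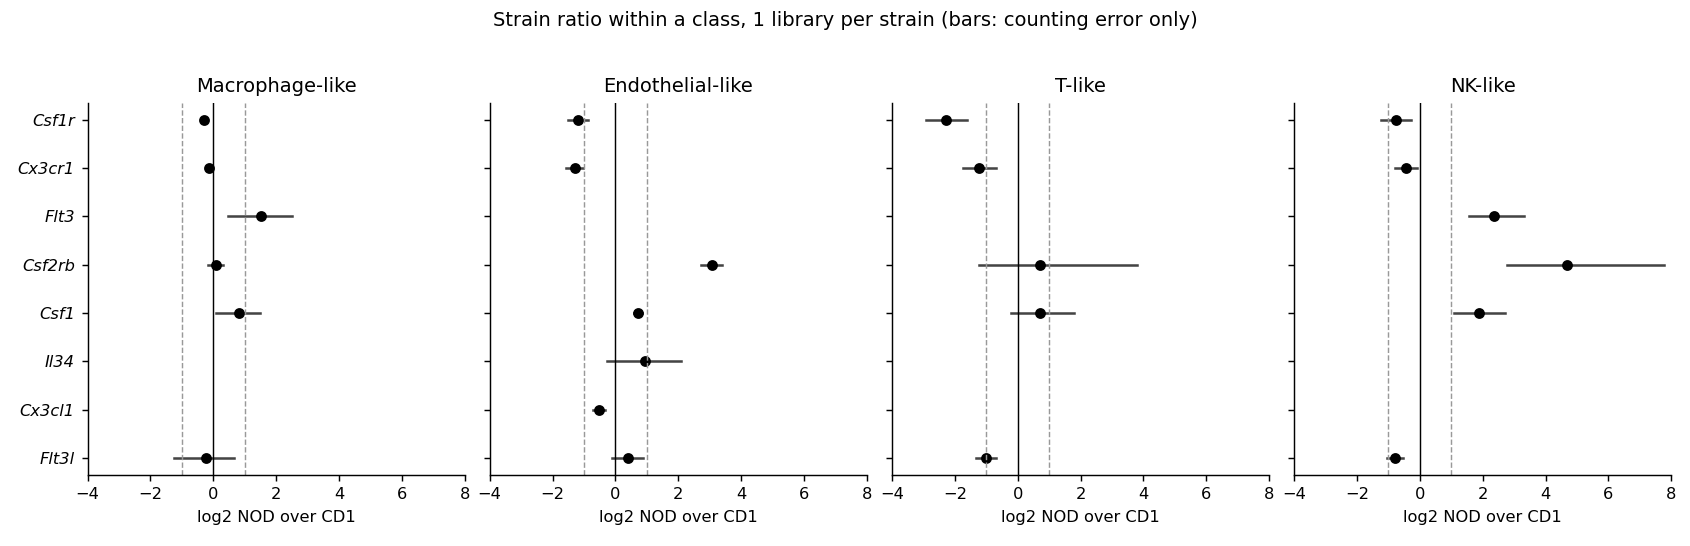
Log2 ratio of the NOD over the CD1 level for each member in macrophage-like, endothelial-like, T-like and NK-like barcodes, with 95% conditional binomial intervals for counting error and dashed lines at 2-fold; genes under 20 UMIs over both libraries, and *Flt3* in T-like barcodes with no CD1 UMI, have no point. *Csf2rb* in endothelial-like barcodes (3.06) stands past the 2-fold line, while *Csf1r* and *Cx3cr1* in macrophage-like barcodes lie close to 0 (-0.30 and -0.14).

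Set against all genes of a class, between 1 and 3 members per class were past 2-fold. In macrophage-like barcodes 1 of 6 members with enough UMIs was past 2-fold higher in NOD (*Flt3*) and 0 lower, where 7.11% of 14288 genes were higher and 5.38% lower. In endothelial-like barcodes 1 of 7 was higher (*Csf2rb*) and 2 were lower (*Csf1r*, *Cx3cr1*), where 6.98% of 14629 genes were higher and 4.76% lower. In T-like barcodes 0 of 6 were higher and 3 lower (*Csf1r*, *Cx3cr1*, *Flt3l*), where 8.46% of 13648 genes were higher and 7.62% lower. In NK-like barcodes 3 of 6 were higher (*Flt3*, *Csf2rb*, *Csf1*) and 0 lower, where 6.46% of 12279 genes were higher and 3.91% lower. Of these 10 calls, 6 concern receptor genes whose UMIs lay mostly in barcodes with 2 or more macrophage or dendritic markers, namely *Csf1r* and *Cx3cr1* in endothelial-like, *Csf1r* in T-like, *Flt3* in macrophage-like, and *Flt3* and *Csf2rb* in NK-like barcodes. *Flt3* in macrophage-like barcodes rests on 14 NOD and 25 CD1 UMIs, and barcodes with 2 or more dendritic markers held 100% and 68.0% of them. Unlike in the other 5 calls, such barcodes were a large part of the class, 34.5% in NOD and 38.4% in CD1. They were also its deepest part, with medians of 9594 and 9406 UMIs against 1547 and 1846 without a dendritic marker. The part of depth in this call was not tested.

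A list of 36 further genes of these pathways was counted in the same way. In macrophage-like barcodes 27 had enough UMIs. Of these, 2 were past 2-fold higher in NOD and 0 lower, where 7.11% of all genes were higher and 5.38% lower. The median log2 ratio was 0.02 against 0.04 over all genes, so the list stood near all genes of the class. Those 2 were feedback inhibitors of cytokine signalling, *Socs1* at 11.0 and 4.02 CPM (ratio 1.46, 0.88 to 2.02) and *Cish* at 3.16 and 0.929 CPM (1.77, 0.58 to 2.90; 12 and 18 UMIs). Both *Socs1* and *Cish* stood higher in T-like barcodes, at 44.1 and 68.2 CPM and at 80.7 and 166 CPM. T-like barcodes were 33.0% of kept NOD and 1.57% of kept CD1 barcodes. Any part of T cell RNA in the macrophage-like values was not tested. The alpha chain gene *Csf2ra* was at 161 and 192 CPM (-0.26, -0.38 to -0.13). The myeloid transcription factor genes *Spi1* and *Irf8* were at 297 and 337 CPM and at 402 and 431 CPM. *Jak2*, the kinase bound to the beta chain, was at 61.6 and 33.6 CPM (0.87, 0.65 to 1.09). The sheddase genes *Adam10*, at 179 and 257 CPM (-0.53, -0.64 to -0.41), and *Adam17*, at 299 and 298 CPM (0.00, -0.09 to 0.09), were measured in the same barcodes.

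In the other classes the list split as follows. Over all genes, 6.98% were higher and 4.76% lower in endothelial-like barcodes, 8.46% and 7.62% in T-like, and 6.46% and 3.91% in NK-like barcodes. In endothelial-like barcodes 3 of 31 genes were past 2-fold higher in NOD (*Csf2rb2*, *Sdc1*, *Irf4*) and 2 lower (*Ptprz1*, *Spi1*), with a median of 0.07 against 0.06 over all genes. *Sdc1*, which encodes a heparan sulfate proteoglycan that binds IL-34, was at 5.22 and 1.22 CPM (ratio 2.09, 1.29 to 2.91). *Ptprz1*, whose product also binds IL-34, had 0 UMIs in NOD and 21 in CD1. *Kitl*, the ligand of KIT, was at 748 and 728 CPM (0.04, -0.01 to 0.09). In T-like barcodes 3 of 29 were higher (*Irf4*, *Runx1*, *Batf3*) and 4 lower (*Csf2ra*, *Csf2*, *Kitl*, *Cish*), with a median of 0.11 against 0.04. *Csf2*, which encodes GM-CSF, had 71 UMIs in NOD and 17 in CD1 T-like barcodes (4.55 and 17.1 CPM). In NK-like barcodes 4 of 30 were higher (*Csf2rb2*, *Cebpa*, *Runx1*, *Batf3*) and 2 lower (*Il3ra*, *Socs2*), with a median of 0.24 against 0.05. The transcription factor gene *Runx1* was at 726 and 337 CPM in T-like (ratio 1.11, 0.95 to 1.27) and at 623 and 271 CPM in NK-like barcodes (1.20, 1.10 to 1.30). Many of the calls above concern genes that stood highest in another class. *Spi1*, *Csf2ra*, *Cebpa*, *Batf3* and *Csf2rb2* were highest in macrophage-like and *Irf4* in B-like barcodes. *Kitl*, *Il3ra* and *Socs2* were highest in endothelial-like, and *Sdc1* and *Ptprz1* in epithelial-like barcodes. Except for *Csf2rb2* in endothelial-like barcodes, these genes were not split by markers of other classes, whose part was not tested.

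The genes whose pattern lay closest to each member were ranked by Pearson's r of log2(CPM + 10) over the 11 class and library pairs with at least 50 barcodes, among 15271 genes outside the marker lists. These 11 points share 2 libraries and differ in depth, so the values are descriptive. *Csf1r* and *Cx3cr1* were each among the other's 3 closest genes (0.993), with *Gatm*, an enzyme of creatine synthesis, first for both (0.997 and 0.995). *Csf2rb* lay closest to *Csf2rb2* (0.965), *Csf1* to *Tln2* (0.983), and *Cx3cl1* to *Nsg1* (0.998), *S100a16* (0.997) and *Cavin3* (0.997), the last a gene of caveolae. *Il34* lay closest to *Gpc6*, *Prelp* and *Ccbe1* (each 0.997), and no mural-like class entered this ranking. *Flt3l* lay closest to *Paxx* (0.965), the T cell surface gene *Thy1* (0.964) and *Hopx* (0.963), and *Flt3* to *Gm11342* (0.940), *Tmsb15b1* and *Mreg* with no dendritic-like class among the points.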

How the data were processed

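Single-cell counts were measured in 1 NOD/ShiLtJ and 1 CD1 library. Per the file headers, the values deposited by the authors are raw UMI counts per gene and barcode, with no cell filter, scaling or correction after counting. The submitters' processing notes name Cell Ranger 8.0.0, Seurat 5.0.1, R 4.3.1 and the GRCm39 build. Both libraries were counted against 1 reference, so reads of alleles that differ from it may be lost. Members, gene lists and rules were chosen with earlier results of these data known.

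Barcodes with at least 500 UMIs and 300 genes were kept (43439635 NOD and 49420810 CD1 UMIs). Classes came from 14 marker lists, and subtypes of endothelial-like and dendritic-like barcodes from at least 2 markers with a lead of 1. Clusters, made without the members, used scanpy 1.11.5 and leidenalg 0.10.2. Barcodes were not treated as replicates. Intervals used scipy 1.17.1 in Python 3.11.15 with numpy 2.4.6 and pandas 2.3.3, at 95%. A library with no UMI was set to 3 UMIs for a bound. The ratio script was tested on simulated data. Genes named are the members, the 36 pathway genes, markers, and the 3 genes closest to each member, while genes leading a cluster and *Csf2rb2* beside its copy were described after their values were seen. Alternatives changed the mitochondrial limit, doublets, depth, marker rule, clusters, free RNA, scaling and weighting, and 3 were chosen after seeing the data. In GENCODE M21 (GRCm38), exons of *Flt3l* overlap *Gm45713* and those of *Csf2rb* overlap *Mir7676-2* on the same strand. Exons of *Csf1r* (*Hmgxb3*), *Cx3cr1* (*Gm33858*) and *Il34* (*Gm15894*, *Gm15895*) overlap genes of the opposite strand, and the handling of such reads is not stated in the methods. Promoters are from RefSeq, and GRCm38 coordinates were not mixed with the counts. Figures were drawn with matplotlib 3.10.9.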

Additional observations from a re-analysis of the deposited data

How the results depend on the processing

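No paired analysis was possible because each strain has 1 library. Across up to 12 alternatives per value, each value was set beside its recomputed one. In these comparisons the main values moved by less than their interval or counting limit in 173 and by more in 38, and the single values in 170 and 39, with a turned direction in 4 more. The log2 ratio of *Cx3cr1* in T-like barcodes (-1.23) turned to 0.97 with doublets removed by Scrublet (338 NOD and 394 CD1 barcodes), to 1.50 with classes from clusters and to 0.22 with at most 1 marker of any other list. That of *Flt3* in NK-like barcodes (2.37) turned to -0.16 with classes from clusters. With at most 1 other marker, the macrophage-like ratios were -0.50 for *Csf1r* and -0.45 for *Cx3cr1*, and with the mean of per-barcode CPM -0.39, -0.35 and, for *Csf2rb*, -0.22. That *Csf2rb* ratio (0.07, spanning 0) kept its sign in 9 of 11 alternatives. *Cx3cr1* was -0.19 with median-of-ratios scaling and -0.066 at 3000 UMIs or more. *Csf2rb* in endothelial-like barcodes was 4.21 (doublets removed), 3.41 (at least 4 markers with a lead of 3), 4.10 (clusters) and 3.89 (at most 1 other marker). In arterial-like barcodes it was 4.35 with doublets removed, and in capillary-like barcodes 4.17, 3.37, 4.15 and 3.63 under the same 4 settings. Free RNA subtracted by secretory genes gave 0.90 for *Csf1* and -0.32 for *Cx3cl1* in endothelial-like barcodes, but its estimate was 234% in NOD macrophage-like barcodes, where it gave no value. The estimate by the lowest marker list was 0.546% to 3.07%. Of 4 ligands, 2 kept their highest class in NOD with the mean of per-barcode CPM and 1 with at most 1 other marker, and in CD1 2 under the latter. Of 4 receptors in CD1, 2 did with at least 2 markers and a lead of 1, and 2 with at most 1 other marker. Pathway genes past 2-fold numbered 1 in macrophage-like barcodes with at most 1 other marker (otherwise 2 or 3). In endothelial-like barcodes (5) they numbered 3 with doublets removed, 3 with 2 markers and a lead of 1, 3 with clusters, 11 with secretory subtraction, 3 with the mean of per-barcode CPM and 1 with at most 1 other marker. Shares in macrophage-like barcodes, unthinned and thinned to 2000 UMIs over the deeper barcodes alone (435 of 675 NOD and 2167 of 2813 CD1), were 69.9% and 71.0% (NOD) and 82.7% and 80.0% (CD1) for *Csf1r*, and 66.2% and 77.2% (NOD) and 78.5% and 82.9% (CD1) for *Cx3cr1*. *Flt3l* in T-like barcodes was past 2-fold in 5 of 12 alternatives. Why these values moved was not tested. Small classes limit the rest: *Il34* in mural-like and *Flt3* in dendritic-like barcodes rest on under 30 barcodes a library.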
